A study of Homo sapiens with 6 samples.

Results

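The genes described here are 9 transcriptional targets of the tumour suppressor p53: MDM2, CDKN1A, ZMAT3, FDXR, TP53INP1, BTG2, GDF15, TP53I3 and SESN1. They were chosen by symbol from the deposited count table, and 9 of 9 have a row among its 16229 genes. The RNA-seq libraries are 3 labelled GCA and 3 labelled CON. Both groups are WT cells of the line MC38, described as CRC (colorectal cancer) cells, and GCA is read from the series' title as glycocholic acid, a glycine-conjugated bile acid. Cells of the GCA group were cultured with it for 24 hours and cells of the CON group without it. No source used here states the dose, a vehicle or separate cultures for the replicates, so the p-values rest on the spread among these libraries alone, which may be technical. The labels give human as the organism although MC38 is a mouse line in general use, and they title the GCA samples fa without explanation.

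p53 is a transcription factor that cells hold at a low protein level until DNA damage, oncogene activity or another stress stabilises it. It binds a double copy of a short DNA motif near its target genes, which arrest the cell cycle, repair DNA, change metabolism or cause cell death. MDM2, itself a target, is the ubiquitin ligase that sends p53 to degradation, so target and regulator form a negative feedback loop. Several targets also answer to other regulators: GDF15 and SESN2, for example, are also induced by ATF4 in the integrated stress response. RNA counts do not measure p53 protein or its activity.

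Of the 9 targets, 3 fell in GCA and 2 rose. The arrest gene CDKN1A, the feedback gene MDM2 and the sestrin gene SESN1 fell, to 0.55, 0.59 and 0.48 times their CON level, and TP53I3 and FDXR rose 1.52-fold and 1.31-fold. Both rises lost their call with the offset for GC content and gene length that is described below. BTG2, GDF15, ZMAT3 and TP53INP1 did not pass the test. In RNA from a whole culture, fewer cells with a transcript and less of it per cell cannot be told apart. The members called were thus 5 of 9, beside 36.4% of the 12604 genes tested. The called-higher share of tested genes was 18.3% and the called-lower share 18.1%, beside 2 and 3 of the 9 members. The CPM of the groups did not overlap in 5 of the 9 members and in 48.5% of all tested genes. The members' median log2 fold change was -0.28, beside -0.04 over all genes tested. A call means an adjusted p under 0.05 (edgeR, quasi-likelihood, Benjamini-Hochberg over all tested genes), with n = 3 per group throughout. CPM is the count relative to the TMM-scaled library total, errors of means are SD, and errors of log2 fold changes are SE. A rise or fall given as a plain number is a log2 fold change, GCA minus CON.

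Total counts ran from 18057453 to 20531612 per library, so 3 counts, taken as the detection floor, correspond to 0.146 to 0.166 CPM; this covers counting error only. Keratin genes headed the colorectal epithelial markers, whose summed level was 7921 to 10112 CPM in CON and 11134 to 12705 CPM in GCA. KRT8, KRT19 and KRT18 made up most of this sum, which therefore says little about the other markers. CDX1, CDH17 and GPA33 of the 12 markers stayed below the filter on low counts. KRT20, VIL1 and LGALS4 passed it, but their highest values in any library were only 2.39, 1.12 and 2.9 CPM. EPCAM, CDH1 and CDX2 stood at 28.58 CPM or more in every library. The 8 leukocyte markers summed to 20.4 to 27.8 CPM in CON and 15.98 to 26.8 CPM in GCA. Both other marker sums were low but higher in every GCA library: 11.96 to 13.3 against 17.1 to 18.6 CPM for 8 fibroblast and endothelial markers, and 23.5 to 27.1 against 37.3 to 42.6 CPM for 8 cardiomyocyte markers. TNNI3 made up most of the cardiomyocyte sum, with means of 23.8 CPM in CON and 38.1 CPM in GCA. COL1A1 made up most of the fibroblast and endothelial sum, with means of 11.09 and 15.03 CPM. Both sums thus say little about the other markers. The cardiomyocyte marker MYL2 and the fibroblast and endothelial marker PDGFRB were tested but not called (-0.73 and -0.16, adjusted p = 0.135 and 0.839). COL1A1, VWF and TNNI3 of these lists rose 1.35-fold, 2.70-fold and 1.60-fold (adjusted p = 0.034, 0.00847 and 0.00136), while PTPRC, CD3E, MS4A1, COL1A2, DCN, MYH6, MYH7 and NPPA never exceeded 3 counts; the part of these markers in the results was not tested. CON 1 stood apart on the second principal component of all tested genes (18.1% of variance, 34.5 against -14.7 and -17.8 in CON 2 and 3). It was also the CON library with the lowest value for 7 of the 9 members. Fold changes rose with the GC content of the transcript over all tested genes (Pearson r = 0.48 across 12563 genes, which are not independent replicates). Results are therefore also given without replicate 1 of both groups and with an offset that removes each library's trend with GC content and gene length.

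The DNA motif through which p53 acts is shown for the 3 members that carry a double copy close to a start site. The motif is the p53 decamer, whose middle holds C, N, N, G and which usually stands in 2 adjoining copies. The search covered the 250 bases before each start in the RefSeq promoter table (GRCh38.p14), which held 15 windows for 8 of the 9 members. A copy pair was counted when both copies kept their C and G and at most 3 of the 20 bases departed from the consensus, a limit chosen after the matches were seen. The consensus reads the same on both strands. Capitals mark the copy pair and lower-case letters the flanking bases, all on the gene's strand.
MDM2: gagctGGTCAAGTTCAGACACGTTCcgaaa
SESN1: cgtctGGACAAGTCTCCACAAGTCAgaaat
FDXR: ggcccGGGCAGGAGCGGGCTTGCCCt

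The MDM2 stretch lies at chr12:68808918-68808947 on the plus strand, before 2 internal starts. It falls in an intron of 7 of the 7 GENCODE 29 transcripts of MDM2 that span it, and its copies depart from the consensus at 2 bases. The SESN1 stretch (chr6:109009013-109009042, minus strand, 3 departures) precedes an alternative start and is intronic in 2 of 2 spanning transcripts. The FDXR stretch (chr17:74872995-74873020, minus strand, 3 departures) ends just before the gene's start in that table, and it overlaps an exon of 5 of the 20 GENCODE 29 transcripts of FDXR. A pair of this kind was present in 3 of the 8 members with a window, against 1.12% of all 27305 symbols in the table and 0.914% of its 35116 windows. The members have more windows per gene than the table as a whole. SESN1 and FDXR stand at the limit of 3 departures, which was chosen after the matches were seen. The shares of pairs are thus no test of enrichment. At least 1 exact single decamer was present in 2 of the 8, SESN1 and FDXR, against 6.80% of all symbols. A match describes the letters only. Sites farther from a start, in any member, were outside the search. Of the 3 genes with a pair in these windows, MDM2 and SESN1 fell and FDXR was called higher. The FDXR call was lost with the GC and length offset (-0.04, adjusted p = 0.758), so the difference in direction rests on a call that did not hold.

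**Figure D1:**
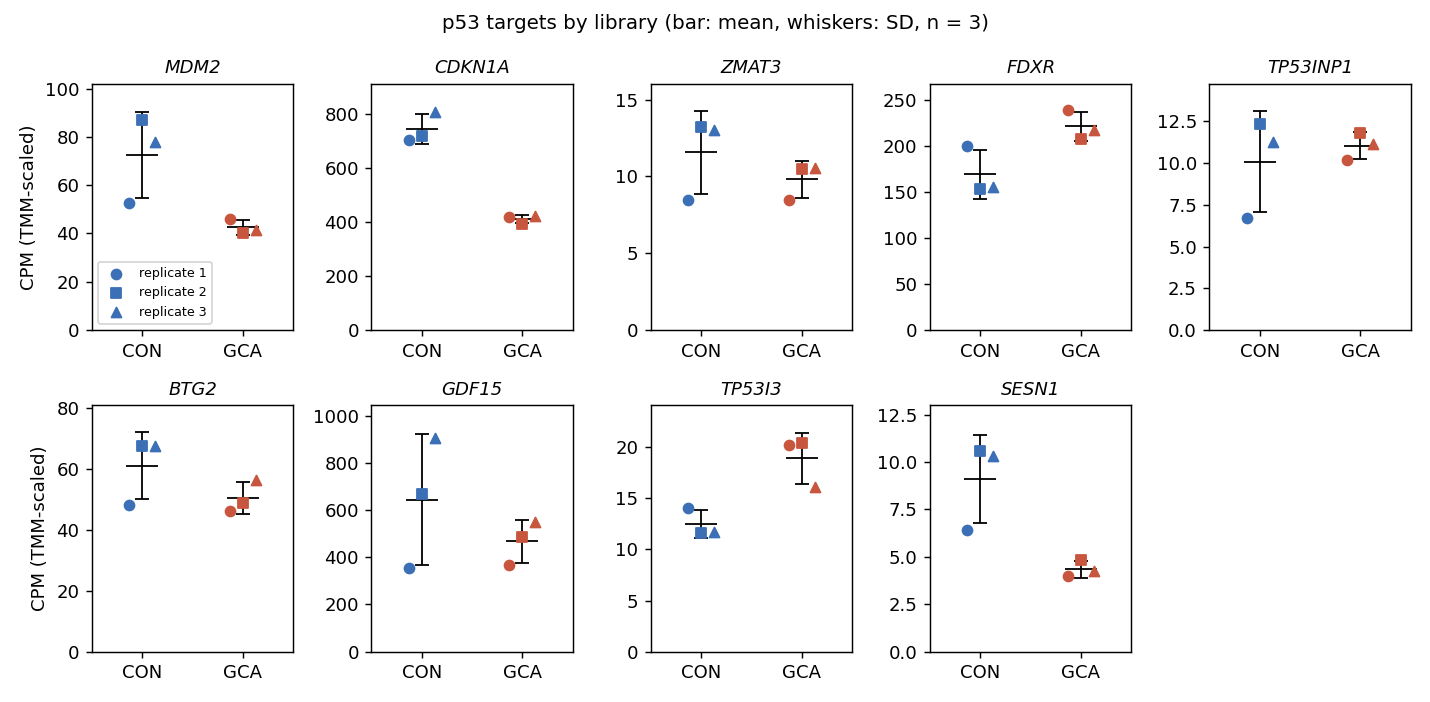
CPM (TMM-scaled) of the 9 targets in each library, CON in blue and GCA in red, with marker shapes for replicates 1 to 3, horizontal bars for means and whiskers for SD (n = 3). MDM2, CDKN1A and SESN1 are lower in every GCA library than in any CON library, FDXR and TP53I3 higher, and CON 1 is the lowest CON library in 7 of the 9 targets.

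MDM2 (chromosome 12, 68808172 to 68850686, GRCh38), the feedback ubiquitin ligase, was counted 945, 1667 and 1507 times in CON 1, 2 and 3, against 929, 790 and 793 times in GCA 1, 2 and 3. On the CPM scale these were 52.6, 86.9 and 78.0 for CON against 46.1, 40.2 and 41.5 for GCA. The GCA libraries lay close together and below every CON library, with CON 1 nearest to them. The mean went from 72.5 ± 17.8 to 42.6 ± 3.09 CPM (log2 fold change -0.77 ± 0.16, adjusted p = 0.00349). With replicate 1 left out of both groups it was -0.99 ± 0.09 (adjusted p = 3.91e-08). The offset took it to -0.42 ± 0.13 (adjusted p = 0.0362).

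CDKN1A (chromosome 6, 36676463 to 36687332) encodes p21, the inhibitor of cyclin-dependent kinases through which p53 arrests the cell cycle. Its CPM were 705, 719 and 810 for CON against 419, 394 and 423 for GCA. The groups were far apart relative to the spread within each, and CON 1 did not stand away from CON 2. The mean fell from 745 ± 56.6 to 412 ± 16 CPM (log2 fold change -0.85 ± 0.13, adjusted p = 0.00033). The offset took the value to -1.18 ± 0.10 (adjusted p = 0.000101). Without replicate 1 of both groups the CDKN1A value was -0.88 ± 0.07 (adjusted p = 1.77e-08). BTG2 (chromosome 1, 203305519 to 203309602), an antiproliferative p53 target, had 48.2, 67.4 and 67.4 CPM for CON against 46.2, 48.9 and 56.3 CPM for GCA. Its groups overlapped through CON 1 (log2 fold change -0.28 ± 0.15, adjusted p = 0.154). Without replicate 1 of both groups BTG2 passed at -0.33 ± 0.09 (adjusted p = 0.00395), and likewise without CON 1 alone (-0.42, adjusted p = 0.00412).

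SESN1 (chromosome 6, 108984309 to 109094846) encodes sestrin 1, a stress protein that restrains the growth kinase complex mTORC1. Counts were 115, 203 and 199 for CON against 80, 95 and 81 for GCA. All 3 GCA libraries lay below the lowest CON library, CON 1. The mean fell from 9.10 ± 2.34 to 4.35 ± 0.443 CPM (log2 fold change -1.07 ± 0.22, adjusted p = 0.00286). Without replicate 1 of both groups the log2 fold change was -1.18 ± 0.17 (adjusted p = 1.1e-05). SESN1 stood at -0.76 ± 0.18 with the offset (adjusted p = 0.0129) and at -0.56 on the log2(FPKM + 1) scale (adjusted p = 0.0117), which understates changes of low genes. Its paralog SESN2, which is shared with the ATF4 response, fell by a like amount: 113, 110 and 149 CPM in CON against 60.3, 51.8 and 62.5 CPM in GCA (-1.09 ± 0.14, adjusted p = 0.000147). The difference between the 2 sestrins was not tested.

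TP53I3 (chromosome 2, 24077433 to 24084834), a quinone oxidoreductase linked to reactive oxygen species, went the other way. Its CPM were 14.0, 11.6 and 11.8 for CON against 20.3, 20.5 and 16.1 for GCA. Every GCA library was above every CON library, and GCA 3 lay nearest to CON. The mean rose from 12.5 ± 1.35 to 18.9 ± 2.47 CPM (log2 fold change 0.60 ± 0.16, adjusted p = 0.01). Without replicate 1 of both groups the log2 fold change was 0.67 ± 0.15 (adjusted p = 0.000771). The TP53I3 call was lost with the offset (0.23 ± 0.14, adjusted p = 0.237) and, narrowly, without GCA 2 (0.54, adjusted p = 0.052).

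FDXR (chromosome 17, 74862497 to 74872994), the mitochondrial reductase that supplies electrons to steroid and iron-sulphur cluster synthesis, had 200, 153 and 155 CPM for CON against 239, 208 and 218 CPM for GCA. CON 1 was the highest CON library here and came close to GCA 2. The log2 fold change was 0.39 ± 0.13 (adjusted p = 0.0386). The FDXR call was lost when CON 2, CON 3, GCA 1, GCA 2 or GCA 3 was left out (0.33 to 0.43, adjusted p 0.0694 to 0.157). Without replicate 1 of both groups the value was 0.49 ± 0.07 (adjusted p = 1.18e-05). With the offset the value was -0.04 ± 0.09 (adjusted p = 0.758).

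GDF15 (chromosome 19, 18386158 to 18389176), a secreted stress cytokine, varied more within CON than any other member. Its CPM were 354, 670 and 907 for CON against 367, 484 and 550 for GCA, so that CON 1 lay below every GCA library and CON 2 and 3 above every one. The log2 fold change was -0.46 ± 0.26 (adjusted p = 0.181). It passed at -0.59 ± 0.10 without replicate 1 of both groups (adjusted p = 8.38e-05), at -0.76 without CON 1 alone (adjusted p = 0.00126) and at -0.98 ± 0.32 with the offset (adjusted p = 0.0418). It shrank to -0.12 without CON 3 (adjusted p = 0.735) and to -0.30 without GCA 1 (adjusted p = 0.492).

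ZMAT3 (chromosome 3, 179017223 to 179072513), an RNA-binding zinc finger protein of the p53 programme, had 8.47, 13.2 and 13.1 CPM for CON against 8.44, 10.5 and 10.5 CPM for GCA. In both groups replicate 1 was the lowest. The log2 fold change of ZMAT3 was -0.24 ± 0.20 (adjusted p = 0.351); it was -0.42 without CON 1 (adjusted p = 0.0326) and 0.15 ± 0.15 with the offset (adjusted p = 0.487). Without CON 2, CON 3 or GCA 1 it lay between -0.13 and -0.12. TP53INP1, a nuclear and autophagy protein that promotes p53-dependent cell death, had 6.68, 12.4 and 11.2 CPM for CON against 10.2, 11.8 and 11.2 CPM for GCA. The GCA values of TP53INP1 fell within the CON range. Its log2 fold change was 0.13 ± 0.21 (adjusted p = 0.661), -0.10 without CON 1 (adjusted p = 0.599) and 0.51 ± 0.17 with the offset (adjusted p = 0.0417).

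**Figure D2:**
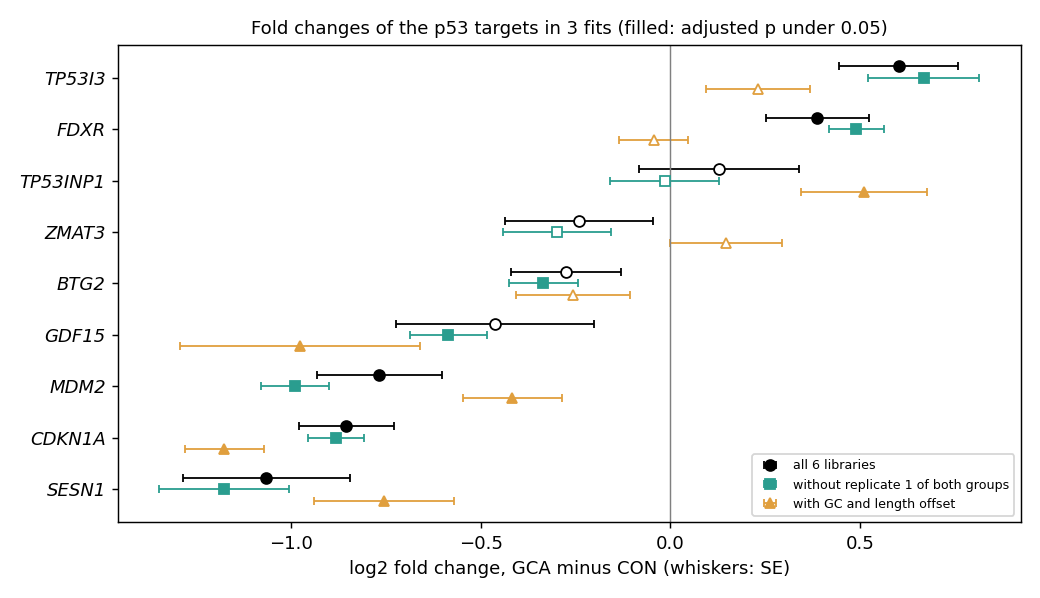
log2 fold change (GCA minus CON) of each target with all 6 libraries (black), without replicate 1 of both groups (green) and with the GC and length offset (yellow); whiskers are SE and filled symbols have an adjusted p under 0.05. SESN1, CDKN1A and MDM2 are negative and filled in all 3 fits, FDXR and TP53I3 lose their call with the offset, and GDF15 gains 1 in both other fits.

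The members that moved differ in base composition. The rising pair, FDXR and TP53I3, had a transcript GC content of 61.8% and 58.4%, and the falling MDM2 and SESN1 41.9% and 43.4%. CDKN1A fell at a GC content of 58.1% and GDF15 lay at 62.9%. Over all tested genes divided into 20 classes by GC content, the class at a median of 41.7% had a median log2 fold change of -0.34 (quartiles -0.56 and -0.08). The class at a median of 58.3% stood at 0.27, with an upper quartile of 0.57, and that at 61.3% at 0.34. MDM2 and SESN1 thus lay below the lower quartile of genes of like composition and CDKN1A far below its class, whereas FDXR lay near the median of its class and TP53I3 just above the upper quartile of its own. What part base composition has in the fold changes was not tested beyond the offset.

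**Figure D3:**
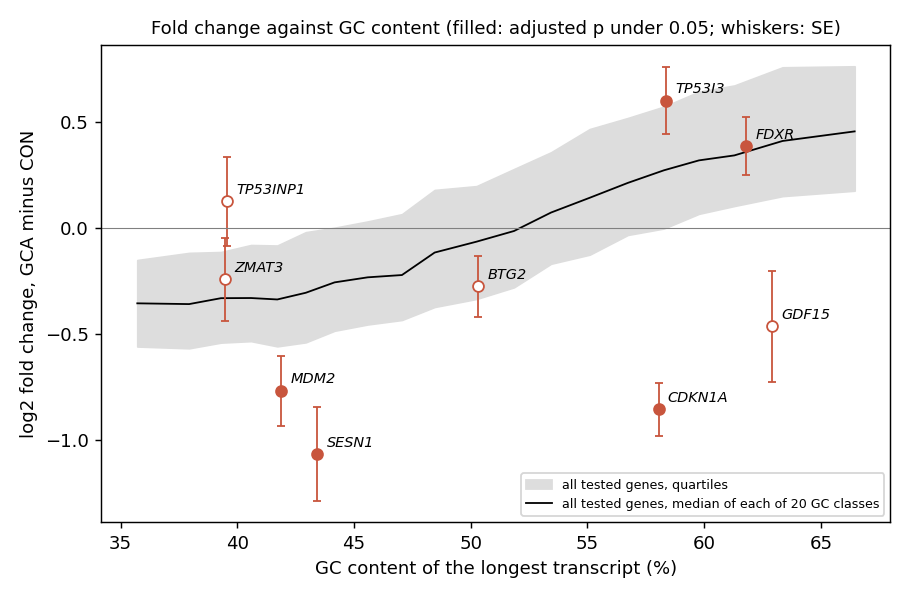
log2 fold change (GCA minus CON) against the GC content of the longest transcript in percent: points are the 9 targets with SE (filled: adjusted p under 0.05), the line is the median of all tested genes in each of 20 GC classes and the band their quartiles. CDKN1A at 58.1% GC is far under the band, MDM2 and SESN1 are under it at lower GC content, and FDXR lies on the line.

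By level per transcript length (FPKM, the authors' values), the members spanned a wide range. In CON, GDF15 had the highest mean at 387 ± 181 FPKM, followed by CDKN1A at 279 ± 34.4, FDXR at 79.7 ± 6.78, BTG2 at 22.9 ± 5.46, TP53I3 at 10.03 ± 0.388 and MDM2 at 9.89 ± 2.97. TP53INP1, SESN1 and ZMAT3 came last at 1.81, 1.53 and 1.26 FPKM. The CON ranges of GDF15 and CDKN1A overlapped, as did those of TP53I3 and MDM2 and of the last 3 neighbours in turn. In GCA each neighbour's range was clear of the next. GDF15 stood at 267 ± 53, CDKN1A at 149 ± 4.91 and FDXR at 102 ± 6.81 FPKM, while TP53I3 (14.8 ± 1.99) stood above MDM2 (5.56 ± 0.385) and SESN1 (0.702 ± 0.0755) came last.

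In the p53 family, TP73 had 54.3, 51.6 and 51.7 CPM for CON against 58.2, 45.0 and 50.5 CPM for GCA (-0.04, adjusted p = 0.844; 0.05 without GCA 2). Its groups overlapped, with GCA 1 the highest library of all 6 and GCA 2 the lowest. With the offset TP73 passed at -0.39 (adjusted p = 0.0143). TP63, with 4, 0 and 3 counts for CON against 5, 10 and 9 for GCA, stayed below the filter. TP63 and TP73 were named after their values were seen.

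Of 23 listed family members and regulators of p53, 22 were tested and 8 fell (median -0.26), beside 18.1% called lower and 18.3% called higher over all tested genes. By edgeR 0 rose, with 0 higher at an unadjusted p under 0.05, and DESeq2 and limma-voom also called 0 higher. Without CON 1, 3 of the 22 were called higher and 11 lower, and with the offset 5 were called lower. Calls lower numbered 4 without CON 2, 5 without GCA 2 and 3 without GCA 3. USP7, which removes ubiquitin from p53 and MDM2, fell from 84.9 ± 3.52 to 50.9 ± 8.22 CPM (log2 -0.74 ± 0.13, adjusted p = 0.00124). CHEK1, a checkpoint kinase of the DNA damage response, fell from 26.6 ± 1.21 to 15.8 ± 2.05 CPM (-0.75 ± 0.14, adjusted p = 0.00155; -0.42 with the offset, adjusted p = 0.027), and RCHY1, another ubiquitin ligase for p53, from 19.99 ± 0.697 to 12.9 ± 0.144 CPM (-0.63 ± 0.13, adjusted p = 0.00354). RCHY1 lost its call with the offset (-0.27, adjusted p = 0.143). The other 5, named after their values were seen, were MDM4, ATM, ATR, CHEK2 and HIPK2.

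MDM4, the partner of MDM2 that blocks p53 activity, had 19.8, 34 and 32 CPM for CON against 18.9, 16.6 and 17.6 CPM for GCA. As with MDM2, CON 1 was the CON library nearest to GCA. MDM4 fell by 0.70 ± 0.18 (adjusted p = 0.0108), stood at -0.35 with the offset (adjusted p = 0.0963) and missed the threshold without CON 2, GCA 2 or GCA 3 (adjusted p 0.0502 to 0.0575). The damage kinase genes ATM, ATR and CHEK2 fell by 0.89, 0.78 and 0.50, and the p53 kinase gene HIPK2 by 0.48. With the offset ATM and ATR stood at -0.48 and -0.40 and lost their calls (adjusted p = 0.149 and 0.0699), and HIPK2 stood at -0.32. Leaving out a library ended the ATM call for any but CON 1 (adjusted p 0.0646 to 0.134), the ATR call without CON 2 or GCA 3 (0.0642 at most), the CHEK2 call without GCA 3 (0.053) and the HIPK2 call without CON 2, CON 3, GCA 2 or GCA 3 (0.0986 at most).

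Other known p53 targets were read from 3 lists of 36 genes, of which 32 were tested: 4 rose, 10 fell and 18 did not pass, with a median log2 fold change of -0.14. Over all tested genes 18.3% were called higher and 18.1% lower, which is also the background for the shares of each list below. Leaving out 1 library gave between 4 calls lower (without CON 2 or GCA 3) and 11 (without CON 1), with 5 without CON 3 or GCA 1 and 6 without GCA 2. Calls higher numbered 2 without CON 2, CON 3, GCA 1 or GCA 2, and 7 without CON 1. In 1 or both limma fits of FPKM, PLK2, GADD45A, PPM1D, XPC, FAS and TNFRSF10B of these lists also lost their calls. MDM4 and ATM of the regulators did so too. PLK2, GADD45A, TNFRSF10B and ATM lost them with limma-voom as well. With a minimum count of 30 in edgeR, the calls of PPM1D, XPC and TNFRSF10B were lost.

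**Figure D4:**
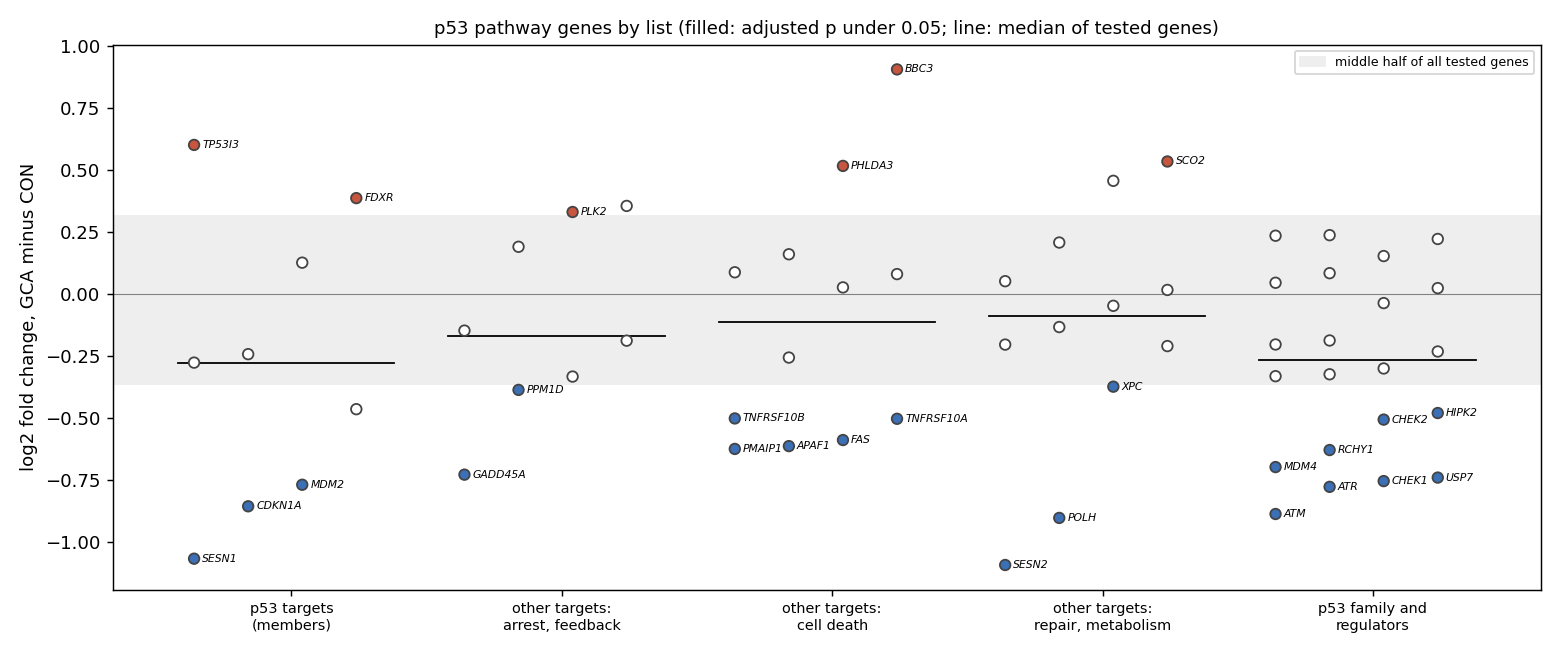
log2 fold change (GCA minus CON) of the tested genes of each p53 list; filled symbols have an adjusted p under 0.05 (red higher, blue lower), horizontal lines are list medians and the grey band spans the quartiles of all tested genes. Calls in both directions occur among the 9 targets and in each list of other targets, and calls among the family and regulators are all lower.

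In growth arrest and feedback, 1 of 8 tested genes rose and 2 fell (median -0.17). GADD45A, which binds PCNA and restrains the cell cycle, had 49.5, 100.1 and 125 CPM for CON against 56.0, 54.3 and 55.6 CPM for GCA. Its groups overlapped through CON 1, and the fall of 0.73 ± 0.24 (adjusted p = 0.0311) was lost when CON 2, CON 3, GCA 1, GCA 2 or GCA 3 was left out (adjusted p 0.0783 to 0.133). The GADD45A value was -0.42 without CON 3 and -1.03 without CON 1. PPM1D, the phosphatase WIP1 that switches p53 signalling off, fell by 0.38 ± 0.13 (adjusted p = 0.038), a call lost on leaving out any 1 of CON 2, CON 3, GCA 1 and GCA 3 (adjusted p 0.0976 to 0.175) and with the offset (-0.14). The polo-like kinase gene PLK2 rose by 0.33 ± 0.12 (adjusted p = 0.0461), a call lost without CON 2, CON 3, GCA 1 or GCA 2 (adjusted p 0.096 to 0.14), with library size only, upper quartile scaling, limma-voom, both FPKM fits or no filter (0.0515 to 0.105).

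Among targets that act in cell death, 2 of 12 tested genes rose and 5 fell (median -0.11). BBC3, which encodes the BH3-only protein PUMA, had 63.2, 73.5 and 83.6 CPM for CON against 124, 139 and 150 CPM for GCA (log2 0.91 ± 0.13, adjusted p = 0.000338). BBC3 transcripts have a GC content of 69.7%, and with the offset its value was 0.29 (adjusted p = 0.126), or 0.31 with the offset and the replicate block together (adjusted p = 0.0447). PHLDA3, an inhibitor of AKT, rose from 69.1 ± 7.30 to 99.0 ± 5.14 CPM (0.52 ± 0.12, adjusted p = 0.00526) and stood at 0.16 with the offset (adjusted p = 0.235). PMAIP1, the gene of NOXA, another BH3-only protein, fell from 69.5 ± 9.29 to 45.2 ± 6.57 CPM (-0.62 ± 0.14, adjusted p = 0.00486), with -0.42 under the offset (adjusted p = 0.059) and -0.41 under the offset with the replicate block (adjusted p = 0.0135). The 2 BH3-only genes thus moved in opposite directions, with no overlap between groups in either, as in 48.5% of all tested genes. PMAIP1 transcripts have a GC content of 37.2%, and neither gene was called with the offset alone. TNFRSF10A, a TRAIL receptor gene, fell by 0.50 ± 0.12 (adjusted p = 0.00682). APAF1, the scaffold of the apoptosome, fell by 0.61 ± 0.18 (adjusted p = 0.0191), a call that ended without CON 2, GCA 1 or GCA 3 (adjusted p 0.0576 to 0.111) and with the offset (-0.27). The death receptor genes FAS and TNFRSF10B, named after their values were seen, fell by 0.59 and 0.50, calls that held with CON 1 left out but with no other library left out (0.0508 to 0.146 for FAS and 0.0877 to 0.244 for TNFRSF10B) and were lost with the offset (-0.21 and -0.45). The TNFRSF10B value shrank to -0.27 without CON 3, and its call was also lost with DESeq2 size factors in edgeR (adjusted p = 0.0507) but held with the offset and the replicate block together (-0.42, adjusted p = 0.0176).

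Among targets of DNA repair, metabolism and autophagy, 1 of 12 tested genes rose and 3 fell (median -0.09). SESN2 gave the largest fall of this list. POLH, the translesion DNA polymerase eta, fell from 34.3 ± 0.724 to 18.3 ± 2.49 CPM (-0.90 ± 0.13, adjusted p = 0.000376). XPC, the damage sensor of nucleotide excision repair, fell by 0.37 ± 0.13 (adjusted p = 0.0428), a call lost without CON 2, CON 3, GCA 2 or GCA 3 (adjusted p 0.133 to 0.208) and in both FPKM fits. SCO2, an assembly factor of cytochrome c oxidase, had 63.9, 38.3 and 38.1 CPM for CON against 64.6, 69.4 and 69.4 CPM for GCA. CON 1 of SCO2 thus almost reached the GCA level, and the rise of 0.54 ± 0.18 (adjusted p = 0.0315) was lost when any library but CON 1 was left out (adjusted p 0.0685 to 0.122) and with the offset (0.05, adjusted p = 0.801). Without CON 1 it was 0.82 (adjusted p = 2.26e-05).

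The genes whose log2 CPM followed CDKN1A most closely over the 6 libraries, among 7527 genes with a mean log2 CPM of at least 4, were UBE2D2 (Pearson r = 0.9993), NLN (0.9992) and FBXO5 (0.9968). For MDM2 they were DENND5A (0.9953), KLF10 (0.9949) and TTL (0.9946). Libraries of both groups enter each r, which is given as a description. FBXO5, an inhibitor of the anaphase-promoting complex, had 35.1, 38.6 and 40.7 CPM for CON against 21.3, 20.3 and 21.6 CPM for GCA. KLF10, a zinc finger transcription factor, had 102, 146 and 139 CPM for CON against 84.5, 77.6 and 77.6 CPM for GCA. Its low CON 1, as in MDM2, follows from its selection by r. The peptidase gene NLN fell by 0.71 ± 0.12, DENND5A by 0.59 ± 0.14 and the tubulin tyrosine ligase gene TTL by 0.57 ± 0.14; with the offset NLN stood at -0.38 and TTL at -0.23, the latter without its call (adjusted p = 0.119). UBE2D2, a ubiquitin-conjugating enzyme gene, fell by only 0.32 ± 0.11 (adjusted p = 0.0342), a call lost without CON 2, CON 3, GCA 1, GCA 2 or GCA 3 (adjusted p 0.0814 to 0.158) and with the offset.

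Several members share their locus with another gene, and no source used here states the strand setting of the counting, so their reads cannot be told apart with certainty. The carboxypeptidase M gene overlaps MDM2, NDUFAF6 overlaps TP53INP1, FAM228B overlaps TP53I3 and ARMC2 overlaps SESN1. Mean levels of these partners in CON were 2.93, 19.2, 0.507 and 1.03 CPM, and their log2 fold changes -0.05, -0.23, 1.1 and 0.30, with adjusted p-values of 0.891, 0.247, 0.059 and 0.501. None of these 4 partners passed the test by edgeR.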

How the data were processed

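For 6 RNA-seq libraries the authors deposited raw gene counts and, in a second table, FPKM. Each deposited FPKM equals the count divided by the library total and a single length per gene (16229 of 16229 genes, relative tolerance 1e-09), so it is no independent measurement. HISAT2 2.2.1.0, HTSeq 0.11.2, fastp 0.20.1 and hg38 are listed, with no role, per the submitters' processing notes; no source used here states the annotation or the strand setting. Per the labels, extraction text speaks of heart samples, and both polyA RNA and a ribosomal-depletion kit are named.

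Counts were fitted with edgeR 4.0.16 in R 4.3.3 (TMM, filterByExpr with minimum count 10 and minimum total 15, quasi-likelihood test) without a replicate block. Alternatives used limma 3.58.1, DESeq2 1.42.0, log2(FPKM + 1) and log2(FPKM + 0.1), other scalings and filters, a replicate block, an offset from a loess surface (span 0.5) on GC content (longest GENCODE 29 transcript, 99.2% of genes) and length, and leaving out libraries. Scripts were tested on simulated data.

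Same-numbered libraries correlated in their deviations from the group means at 0.206, 0.137 and 0.104 across genes. Each was over the limit of 0.1 by which the labels' numbers were taken to pair them, though the differently numbered CON 3 and GCA 2 gave 0.0954. The main fit and the fits that left out libraries did not use this pairing, which entered only through the replicate block. The members, lists and tests were chosen with earlier results of these data known. The text names the 9 members, from each list of other targets and of regulators the 3 genes with the lowest p among those called in each direction, and the 3 genes most like CDKN1A and MDM2. 1 gene of the list of family members and regulators is not reported here.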

Additional observations from a re-analysis of the deposited data

How the results depend on the processing

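Over 19 alternatives, 34 of 38 named genes kept their direction and 12 also kept their side of the threshold throughout; MDM2, CDKN1A and SESN1 are among these 12, with adjusted p-values of at most 0.0436, 0.00559 and 0.0215. The reversals were ZMAT3 (0.15 with the GC and length offset, 0.15 with the offset and replicate block), FDXR (-0.0437 and -0.0445), TP53INP1 (-0.10 without CON 1 to 0.31 without CON 2 over single libraries, -0.01 without both first replicates) and TP73 (-0.12 without GCA 1 to 0.050 without GCA 2). Members called higher numbered 1 with the offset, with or without the replicate block, and other targets called higher numbered 2 with the offset alone. Without both first replicates 7419 genes were called in all, 5 members lower and 10 other targets higher. The cause was not tested. Leaving out 1 library gave 2621 (GCA 3) to 6707 (CON 1) calls over all genes, against 4584, with 3029 without CON 2; 0 to 2 members higher (by edgeR 0 without GCA 2, where 2 had an unadjusted p under 0.05), 3 to 6 lower, and 2 to 7 other targets higher and 4 to 11 lower. The fit with the replicate block called 5163 genes; it changed no call among the named genes. Added to the offset, the block restored the calls of BBC3, PMAIP1 and TNFRSF10B.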
